A study of Mus musculus with 2 samples.

Results

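Replication-dependent histone genes encode the H1, H2A, H2B, H3 and H4 proteins that package newly copied DNA, and their captured transcripts were followed here in single-cell libraries of mouse retina. Members were all genes of the deposited tables whose symbol begins with Hist1h, Hist2h, Hist3h or Hist4h, which gave 69 of 27998 listed genes. The 61 with at least 20 unique molecular identifiers (UMIs, each tagging 1 captured transcript) over both libraries were used. They comprised 5 of 6 listed H1 genes, 16 of 19 H2A genes, 16 of 19 H2B genes, 12 of 12 H3 genes and 12 of 13 H4 genes. The symbol rule also took in Hist1h2al, which the annotation calls a processed pseudogene, and a second entry named Hist2h2bb that the annotation calls a long non-coding RNA.

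The DKO_Skp2het library came from retina with the genotype alphaCre, Rb f/f, p107-/- and skp2+/-, which the submitters call tumor-resistant. The DKO library came from retina with alphaCre, Rb f/f and p107-/-, which they call tumor-prone. Both were taken at postnatal day 8 from the peripheral, Cre-expressing area, so cells of both libraries lacked p107 and shared the floxed Rb alleles and the Cre driver. Each genotype had 1 library, the number of animals in it is not given in the sources used here, and the series title concerns how the length of the cell cycle bears on transformation.

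Histone transcripts are made mainly in S phase, when a dividing cell copies its DNA. Most end in a short stem-loop that the protein Slbp binds, in place of the poly(A) tail of other messenger RNAs, and they are destroyed when DNA synthesis ends. Rb and p107 hold back entry into S phase, and Skp2 is the part of a ubiquitin ligase that recognises the inhibitor p27 for degradation. A 3′ capture kit primes on stretches of A, so it favours histone transcripts that carry a poly(A) tail or an internal run of A. The levels below are therefore levels of captured transcripts, and differences in level between genes are differences in capture as well as in RNA.

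The libraries held 5196 barcodes and 25766024 UMIs in DKO_Skp2het, against 3621 barcodes and 24413761 UMIs in DKO. After filtering, 4978 DKO_Skp2het cells and 3515 DKO cells were kept, with medians of 3810.5 and 4874 UMIs per cell. The lowest barcode held 2387 UMIs in DKO_Skp2het and 3420 in DKO, and 37.8% of kept DKO_Skp2het cells lay below that DKO minimum. The libraries shared 30 barcodes. Skp2, which the genotypes differ in, stood at 56.8 CPM in DKO_Skp2het and 80.8 CPM in DKO, a ratio of 0.703 (95% interval 0.655 to 0.754). CPM are UMIs per 1000000 UMIs of the same cells, and each ratio is DKO_Skp2het over DKO. With 1 library a genotype no difference has a replicate check and none was tested. The intervals are exact, cover counting error only and treat the UMIs of 1 cell as independent.

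The stem-loop was looked for first, because it marks the usual end of a histone transcript. Its letters, GG, any 2 bases, CTTTT, any base, AG, any 2 bases and CC, on the transcript strand, lay in an annotated transcript of 39 of 59 matched members (66.1%), against 34 of 27578 other genes (0.123%). The polyadenylation signal AATAAA lay in the last 50 bases of a transcript of 12 of the 59 members (20.3%), against 62.4% of the others. A run of at least 8 A lay in transcripts of 7 members (11.9%), against 31.4% of the others. In annotated transcripts the members were thus set apart by the stem-loop letters, and carried the usual tail signal and A runs less often than other genes. Several members without the letters have short annotated transcripts, such as Hist1h2ai (393 bases), Hist1h2bl (381) and Hist1h4k (312). These may leave out the 3′ end, so a missing stem-loop or AATAAA is missing from the annotation only. The part of transcript length in these shares was not tested. The most captured members illustrate different transcript ends, shown here with the stem-loop in capitals (GRCm38, 5′ to 3′, T for U).
Hist3h2ba: acccaaaGGCTCTTTTCAGAGCCacctt
Hist3h2a: caccaaaGGCTCTTTTCAGAGCCaccca
Hist1h1e: acccaaaGGCTCTTTTCAGAGCCaccca
Hist1h2ap: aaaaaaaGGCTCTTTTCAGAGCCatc
Hist1h2ae: aaacaaaGGCTCTTTTCAGAGCCattca

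Hist3h2ba, an H2B gene on chromosome 11 (chr11:58948920-58949533, plus strand), has an annotated transcript that runs 169 bases past the stem-loop to an AATAAA. Its neighbour Hist3h2a, an H2A gene (chr11:58954685-58956830, plus strand), runs 1643 bases past it, also to an AATAAA, and overlaps Trim17 on the same strand. Hist1h1e, a linker histone gene (chr13:23620629-23622558, minus strand), runs 1153 bases past it and overlaps Hist1h2be. Hist1h2ap, an H2A gene (chr13:21833026-21833507, minus strand), ends 3 bases past the stem-loop and has no AATAAA at its end. Directly before its stem-loop lies a run of 12 A. Hist1h2ae, another H2A gene (chr13:23570517-23571220, minus strand), has a run of 8 A that ends 4 bases before the stem-loop, and its transcript runs 151 bases past the stem-loop to an AATAAA. The stretches before the stem-loop of these 2 genes, and of Hist3h2ba, which has no such run, are set side by side with the A runs in capitals.
Hist1h2ap: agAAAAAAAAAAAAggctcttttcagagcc
Hist1h2ae: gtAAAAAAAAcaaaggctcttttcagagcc
Hist3h2ba: gcccccaacccaaaggctcttttcagagcc
The near-identical sequence of some histone genes, H2A genes among them, limits the assignment of reads. Of the 100-base windows of the Hist1h2ap transcript 92.2% also occur in another gene's transcript, against 30.7% for Hist1h2ae, 4.85% for Hist3h2ba and 0% for the linker histone gene Hist1h1b. Outside H2A the share is 100% for the H3 gene Hist2h3c1, 61.6% for the H3 gene Hist2h3c2 and 62.1% for the H2B gene Hist1h2bl. How reads shared between copies were counted is not given in the sources used here. The values of Hist1h2ap and of other members with many shared windows are therefore uncertain as those of single genes. Hist1h2ap also overlaps Gm44466 on the opposite strand, and the strand setting of the counting is not given in these sources either.

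Captured histone transcripts were concentrated in few members. Hist3h2ba had the highest level in DKO_Skp2het, with 6335 UMIs (264 CPM, 22.2% of all member UMIs) against 5407 UMIs (231 CPM, 14.7%) in DKO. Hist1h2ap had the highest level in DKO, with 4053 UMIs in DKO_Skp2het (169 CPM, 14.2% of member UMIs) against 8626 UMIs in DKO (368 CPM, 23.5%). The order of these genes at the top was therefore exchanged between the libraries. Next came the linker histone genes Hist1h1e (109 CPM in DKO_Skp2het, 142 CPM in DKO) and Hist1h1b (72.3 and 95.2 CPM), the H2B gene Hist1h2bc (71.1 and 87.4 CPM) and Hist3h2a (79.1 and 76.7 CPM). Hist1h2ae, Hist1h1c and Hist1h2al followed between 39.7 and 56.4 CPM in DKO_Skp2het and between 53.1 and 76.4 CPM in DKO. Each of the other 52 members lay at or under the 19.4 CPM in DKO_Skp2het and 33.3 CPM in DKO of the H4 gene Hist1h4d.

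**Figure D1:**
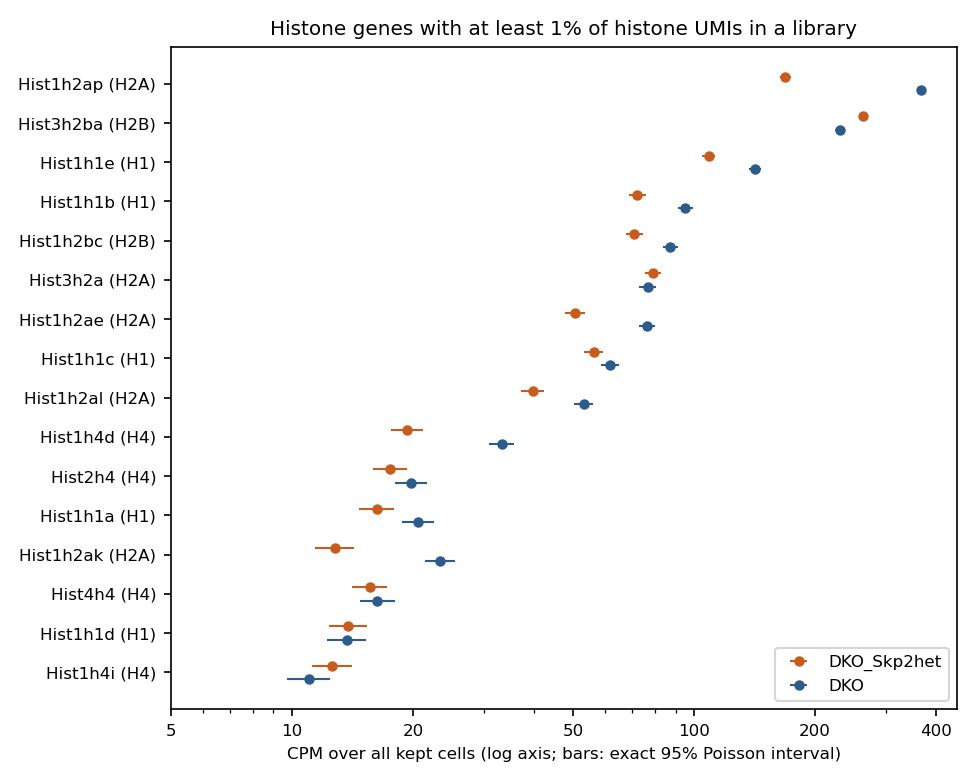
Level in CPM (log axis) of the 16 members with at least 1% of member UMIs in a library, over all kept cells, with exact 95% Poisson intervals as bars; DKO_Skp2het is drawn above DKO for each gene. Hist1h2ap stands at 169 CPM in DKO_Skp2het and 368 CPM in DKO, Hist3h2ba at 264 and 231 CPM.

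By transcript end, the 20 members with an annotated transcript reaching more than 100 bases past the stem-loop held 16265 UMIs in DKO_Skp2het and 17169 in DKO. The 19 members ending within 100 bases held 5559 and 10991 UMIs, and 20 members without the letters in their annotated transcript held 6414 and 8142. The median level of a member was 11.6 CPM in DKO_Skp2het and 12.3 CPM in DKO for the long ends, against 3.08 and 4.82 CPM for the short ends. Genes annotated with a longer end thus had higher captured levels in both libraries.

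Cells were called dividing when, after thinning to 1500 UMIs, they held at least 3 UMIs of 26 core proliferation genes, none of them a histone gene. This took 2801 DKO_Skp2het cells (56.3%) and 2324 DKO cells (66.1%). The other cells are called non-dividing, and whether some of them were cycling with few core UMIs was not tested. Histone transcripts were higher in dividing cells. Summed over all members they stood at 1521 CPM in dividing and 702 CPM in non-dividing DKO_Skp2het cells, and at 1994 and 643 CPM in those of DKO, 2.17 and 3.10 times as high. Of 43 members with at least 100 UMIs in dividing cells, the interval of the dividing over non-dividing ratio lay above 1 for 39 in DKO_Skp2het and 40 in DKO. Their median ratio was 5.81 in DKO_Skp2het and 7.97 in DKO. The share of all genes with such an interval was not computed, so these counts describe the members only.

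Hist1h2ap was the steepest of the abundant members, at 280 CPM in dividing and 5.84 CPM in non-dividing DKO_Skp2het cells (47.9 times, 36.9 to 63.4) and 533 and 14.9 CPM in those of DKO (35.9 times, 29.7 to 43.7). Hist1h2ae was 34.0 and 34.4 times as high in dividing cells of DKO_Skp2het and DKO, Hist1h1b 19.1 and 20.8 times, and the H2A gene Hist1h2ak 18.4 and 25.2 times. Ratios of the scarce H2A genes Hist1h2af (53.3 in DKO_Skp2het) and Hist1h2ac (23.0 in DKO_Skp2het), of Hist2h2ac (32.8 in DKO), and of the H2B genes Hist1h2bp (57.5 in DKO) and Hist1h2bn (32.3 in DKO) rest on 1 to 4 UMIs in non-dividing cells. The other linker histone genes showed less contrast, with Hist1h1e at 3.98 and 6.04 times and Hist1h1c at 1.65 and 2.03 times. At the low end stood the pseudogene Hist1h2al (1.02 in DKO_Skp2het, 1.31 in DKO), and the H3 genes Hist2h3c1 (1.34 and 1.16) and Hist1h3a (1.54 and 1.82).

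Hist3h2ba and Hist3h2a ran the other way in both libraries. Hist3h2ba was lower in dividing cells, at 212 against 339 CPM in non-dividing DKO_Skp2het cells and 196 against 304 CPM in those of DKO, ratios of 0.626 (0.596 to 0.658) and 0.646 (0.612 to 0.682). Hist3h2a gave 0.680 and 0.780. They were the only 2 of the 43 members whose interval lay below 1, in each library. The label of replication-dependent genes therefore fits the captured levels of most members but not of this pair, so the pair and the 59 other members were also summed apart, a split chosen after the values were seen. The 59 other members stood at 1242 CPM in dividing and 265 CPM in non-dividing DKO_Skp2het cells, and at 1727 and 249 CPM in those of DKO, ratios of 4.68 and 6.93.

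The share of cells with a captured transcript showed the same contrast. With every cell thinned to 1500 UMIs, Hist1h2ap was found in 21.6% of dividing and 1.06% of non-dividing DKO_Skp2het cells, and in 36.4% and 1.68% of those of DKO. Unthinned these shares were 36.8% and 2.34% in DKO_Skp2het, and 55.2% and 5.46% in DKO. In microglia-like cells, immune cells that held no dividing cell in either library, it was found in 0 of 41 DKO_Skp2het cells (upper 95% bound 8.60%) and 1 of 29 DKO cells (3.45%) after thinning, at medians of 7519 and 9247 UMIs. These are too few cells to set a background share, so the part of free RNA in the shares and levels of non-dividing cells was not tested. Hist3h2ba was found in 23.0% of dividing and 33.1% of non-dividing DKO_Skp2het cells, and in 23.2% and 34.8% of those of DKO, against 2.44% and 3.45% of microglia-like cells of DKO_Skp2het and DKO. Member UMIs were uneven over cells: the 10% of cells with the most held 45.5% of them in DKO_Skp2het and 47.0% in DKO.

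Dividing cells were next placed by S share, the UMIs of an S phase list over those of the S phase and G2M lists together, again without histone or core genes. The 59 other members were highest at an intermediate S share in both libraries. At an S share of 0.50 and over they stood at 455 CPM in DKO_Skp2het and 675 CPM in DKO, at 0.30 to 0.50 at 1457 and 2038 CPM, at 0.15 to 0.30 at 2253 and 2555 CPM, and under 0.15 at 1218 and 1329 CPM. In the range of the peak, 0.15 to 0.30, UMIs of G2M genes outnumber those of S phase genes. By definition this holds for every range under 0.50, so the peak is placed by S share only, not by phase. Slbp, the gene of the stem-loop binding protein, stood at 529, 524, 363 and 124 CPM in the same order in DKO_Skp2het, and at 404, 454, 340 and 120 CPM in DKO. It was thus higher in both ranges from 0.30 up than in the range of the histone peak. Hist3h2ba and Hist3h2a together stood at 110, 237, 428 and 430 CPM in DKO_Skp2het, and at 146, 234, 322 and 376 CPM in DKO, so the pair was not lower in the last range than at the peak of the others.

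**Figure D2:**
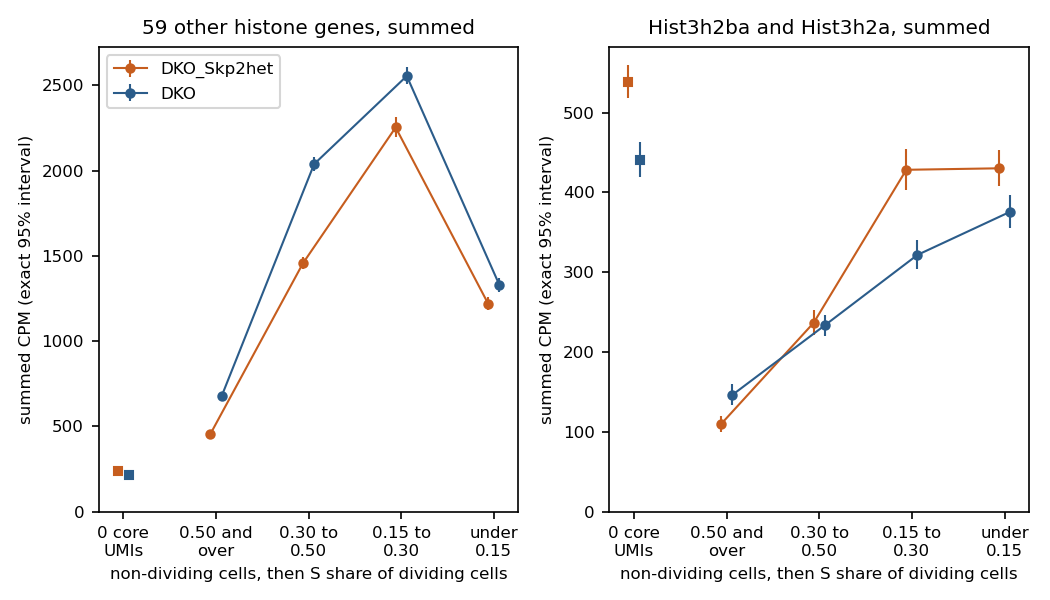
Summed CPM of the 59 other members (left) and of Hist3h2ba with Hist3h2a (right) in non-dividing cells without core UMIs (squares) and in dividing cells by S share (circles, from high to low), with exact 95% intervals. The 59 members peak at an S share of 0.15 to 0.30, at 2253 CPM in DKO_Skp2het and 2555 CPM in DKO, while the pair is highest in cells without core UMIs, at 539 and 441 CPM.

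Most members shared this course. Of the 43 members, 38 in DKO_Skp2het and 40 in DKO were higher at 0.15 to 0.30 than at 0.50 and over with the interval clear of 1, by a median of 3.94 and 3.32 times. For this contrast too the share of all genes was not computed. Hist1h2ap was 9.33 times as high in DKO_Skp2het (568 against 60.8 CPM) and 5.10 times in DKO (826 against 162 CPM). Hist1h3a, an H3 gene (chr13:23761853-23762386, minus strand), ran against the others. It stood at 14.4 CPM at 0.50 and over and 4.54 CPM under 0.15 in DKO_Skp2het, and at 21.1 and 3.59 CPM in DKO, so it was 3.18 (1.79 to 6.02) and 5.89 (3.17 to 11.9) times as high in the S-leading cells. It was also the only member of the 43 that was lower at 0.15 to 0.30 than at 0.50 and over with an interval below 1, in each library. The H2B gene Hist1h2bm came next, at 1.68 and 1.52 times for 0.50 and over against under 0.15. The linker histone gene Hist1h1a stood at 1.27 and 1.34 times, with intervals that include 1, as do those of Hist1h4a (1.67 and 1.31, on 6 and 9 UMIs under 0.15), Hist2h4 (0.913 in DKO_Skp2het), Hist2h3c1 (0.982 in DKO) and Hist1h2bk (0.920 in DKO).

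At the other end of that order, the H2B gene Hist2h2be stood at 3.49 CPM at 0.50 and over and 21.5 CPM under 0.15 in DKO_Skp2het, a ratio of 0.163, and at 0.264 in DKO. Hist1h2bn (0.128 and 0.207) and Hist3h2a (0.211 and 0.279) were low in both libraries. Hist1h2ab (0.220) and Hist1h2bb (0.224) were among the lowest 5 in DKO_Skp2het, and Hist1h2ai (0.151), Hist1h2bl (0.245) and Hist1h2be (0.268) in DKO. Several of these ratios rest on under 10 UMIs in the S-leading cells and are imprecise.

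**Figure D3:**
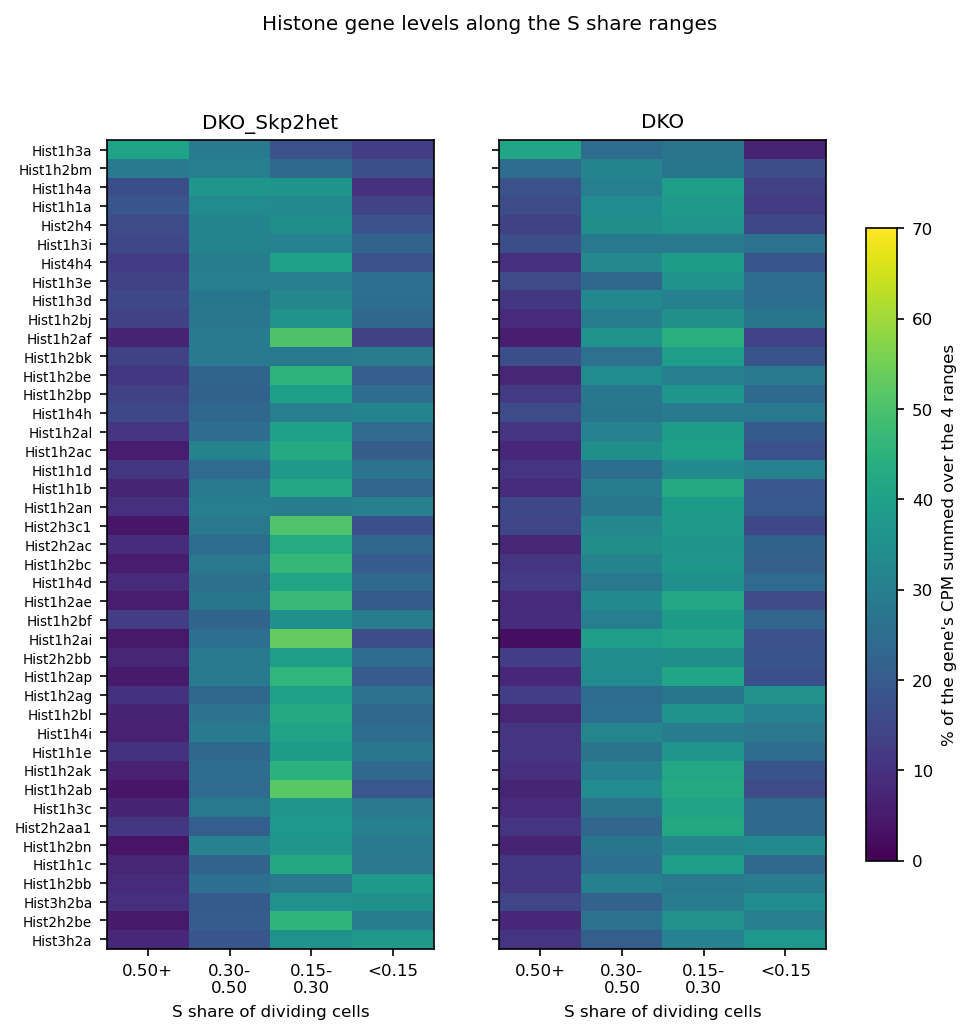
Share (%, colour) of each gene's CPM, summed over the 4 S share ranges, that fell in each range, for the 43 members with at least 100 UMIs in dividing cells, in DKO_Skp2het (left) and DKO (right). Most rows are brightest at 0.15 to 0.30, while Hist1h3a is brightest at 0.50 and over in both libraries.

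Between the libraries, histone transcripts were lower in DKO_Skp2het. Over all kept cells the 61 members summed to 28533 UMIs (1188 CPM) in DKO_Skp2het and 36666 UMIs (1564 CPM) in DKO, a ratio of 0.760 (0.748 to 0.772). In dividing cells alone, 1521 against 1994 CPM gave 0.763 (0.750 to 0.776). The ratio was not the same in every class. In dividing cells H2A stood at 551 CPM in DKO_Skp2het and 901 CPM in DKO (0.612, 0.595 to 0.629), H4 at 115 and 140 CPM (0.819), H3 at 66.9 and 78.8 CPM (0.849), H1 at 388 and 451 CPM (0.860), and H2B at 400 and 422 CPM (0.947, 0.914 to 0.981). Hist1h2ap held 3996 of the 7859 H2A UMIs there in DKO_Skp2het and 8515 of 14391 in DKO. Hist3h2ba held 3027 of the 5702 H2B UMIs in DKO_Skp2het and 3137 of 6751 in DKO. The H2A and H2B sums thus rest largely on a single gene each. Median member ratios in dividing cells lay closer together. They were 0.692 in H2A, 0.760 in H4, 0.812 in H2B, 0.877 in H1 and 0.891 in H3. Core proliferation genes, whose UMIs chose the dividing cells, stood at a ratio of 1.00 in them, the S phase list at 1.05 and the G2M list at 0.993. Over all kept cells, of which a smaller share was dividing in DKO_Skp2het, the core list stood at 0.880, with 22 of 26 genes below 1, the G2M list at 0.896 and the S phase list at 1.01. The part of these differences in the member ratio over all kept cells was not tested. In the kept cells with at least 3420 UMIs, the lowest DKO depth, the member ratio was 0.816 in dividing cells.

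Counts of genes point the same way. Over all kept cells 21 of 61 members were lower by more than 1.5-fold, against 3.41% of all 14868 genes with at least 20 UMIs. They were 10 of 16 H2A, 6 of 16 H2B, 4 of 12 H4, 1 of 12 H3 and 0 of 5 H1 genes. Only 1 of 61 was higher by more than 1.5-fold, against 5.06% of all genes, and this was the H3 gene Hist2h3c2 with 24 UMIs in DKO_Skp2het and 14 in DKO (ratio 1.67, 0.832 to 3.50). In dividing cells 13 of 60 members were lower, against 4.64% of all genes, and 0 of 60 were higher, against 4.99%. With at least 100 UMIs, 19 of 45 members were lower over all kept cells, against 1.31% of all genes, and 0 were higher, against 2.33%. In dividing cells 10 of 43 such members were lower, against 2.5%, and 0 were higher, against 2.08%. The median ratio of a member was 0.760 over all kept cells and 0.795 in dividing cells, against 1.02 for all genes in both.

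H2A genes, which encode a core histone that pairs with H2B, had the lowest ratios. Among members with at least 100 UMIs, Hist1h2ab was lowest over all kept cells, with 37 UMIs in DKO_Skp2het and 90 in DKO (0.402, 0.266 to 0.595). Hist1h2ap gave 0.459 (0.442 to 0.476), Hist1h2ac 0.464 and Hist1h2ag 0.475, followed by the H4 gene Hist1h4c at 0.495. In dividing cells Hist1h2ab stood at 2.46 CPM in DKO_Skp2het and 5.44 CPM in DKO (0.451), Hist1h2ag at 9.54 and 19.2 CPM (0.496), Hist1h2ap at 280 and 533 CPM (0.526, 0.506 to 0.546), Hist1h2ac at 7.08 and 13.4 CPM (0.529), and Hist1h2ai at 3.23 and 5.88 CPM (0.548). All 13 H2A genes with at least 100 UMIs in dividing cells, the pseudogene Hist1h2al included, had ratios below 1, and the intervals of 11 excluded it. Of all 11225 genes with at least 100 UMIs there, 4977 had ratios below 1. The share of all genes with an interval below 1 was not computed. Hist1h2ae (0.756) and Hist3h2a (0.944, interval 0.865 to 1.03) lay nearer to 1 than Hist1h2ap.

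H1 and H3 genes differed less, and H4 genes were mixed. In dividing cells 4 of 12 H4 genes were lower by more than 1.5-fold, beside 6 of 16 H2A and 2 of 16 H2B genes. For H3 it was 1 of 11 and for H1 0 of 5, against 4.64% of all genes. Hist1h1b, a linker histone gene (chr13:21779883-21780625, minus strand), stood at 118 CPM in dividing DKO_Skp2het cells and 137 CPM in those of DKO (0.861, 0.807 to 0.918), and Hist1h1e at 156 and 193 CPM (0.810). Hist1h1d gave 1.12, with an interval that includes 1 (0.957 to 1.32). Among H4 genes Hist1h4h and Hist1h4d gave 0.626 and 0.633, while Hist1h4i gave 1.17 (0.971 to 1.41). Among H3 genes Hist1h3c gave 0.696, while Hist1h3d and Hist2h3c1 gave 1.10 each, with intervals that include 1.

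H2B genes fell on both sides of 1. Hist1h2bp and Hist1h2bj were at 0.620 in dividing cells and Hist1h2bc at 0.787. Hist2h2be, with 233 UMIs in DKO_Skp2het and 208 in DKO (1.26 in CPM, 1.04 to 1.52), and Hist3h2ba, at 212 and 196 CPM (1.08, 1.03 to 1.14), were the only 2 members whose interval in dividing cells lay above 1. Over all kept cells Hist3h2ba was 1.14 (1.10 to 1.19), Hist2h2be 1.17 (0.981 to 1.40), Hist1h4i 1.14 and Hist3h2a 1.03. The long non-coding entry named Hist2h2bb gave 1.34 (0.968 to 1.87), while the coding gene of that name gave 0.619.

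**Figure D4:**
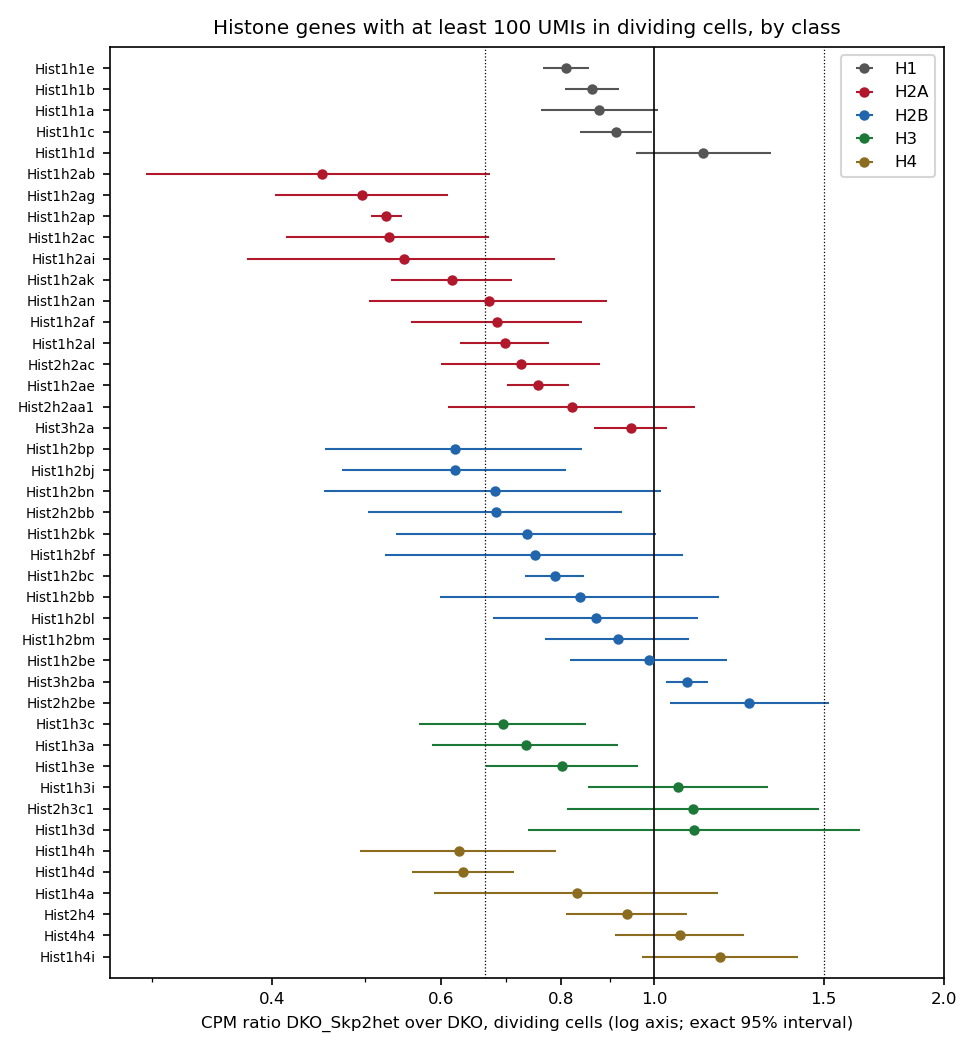
Ratio of CPM in dividing cells, DKO_Skp2het over DKO (log axis), for the 43 members with at least 100 UMIs there, grouped by histone class, with exact 95% intervals; the solid line marks 1 and the dotted lines 1.5-fold. All 13 H2A genes lie left of 1, from Hist1h2ab at 0.451 to Hist3h2a at 0.944.

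By annotated transcript end, the median ratio over all kept cells was 0.900 for the 20 members with long ends and 0.651 for the 19 with short ends. It was 0.790 for the 20 without the stem-loop letters in their annotated transcript. Of these, 5, 10 and 6 were lower by more than 1.5-fold, against 3.41% of all genes. Within classes, the median ratio of short against long ends was 0.640 against 0.936 in H2B, 0.735 against 1.01 in H3 and 0.633 against 0.843 in H4, on 3 to 6 members each. In H2A it was 0.651 for 7 short ends and 0.663 for 3 long ends, which were Hist1h2ac at 0.464, Hist1h2ae at 0.663 and Hist3h2a at 1.03.

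The difference between the libraries varied with S share. The ratio of all members was 0.688 (0.651 to 0.727) at 0.50 and over, 0.746 (0.724 to 0.768) at 0.30 to 0.50, 0.932 (0.905 to 0.961) at 0.15 to 0.30 and 0.967 (0.931 to 1.00) under 0.15. H2A stood at 0.509, 0.587, 0.784 and 0.842 in the same order, and Hist1h2ap at 0.375, 0.524, 0.687 and 0.744. H1 stood at 0.842, 0.876, 0.980 and 1.08. H2B reached 1.24 (1.17 to 1.32) at 0.15 to 0.30, where Hist3h2ba stood at 325 CPM in DKO_Skp2het and 233 CPM in DKO (1.39, 1.27 to 1.53) and Hist2h2be at 33.6 and 18.0 CPM (1.87, 1.35 to 2.59). The ranges were not filled alike. The dividing cells numbered 947 in DKO_Skp2het and 557 in DKO at 0.50 and over, 753 and 656 at 0.30 to 0.50, 469 and 541 at 0.15 to 0.30, and 623 and 568 under 0.15. With the 4 ranges weighted equally the ratio in dividing cells was 0.859, an alternative added after the values were seen.

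Non-dividing cells are those with under 3 core UMIs after thinning, and cycling cells among them were not told apart. Slbp stood at 199 CPM in non-dividing cells of DKO_Skp2het and 165 CPM in those of DKO. These levels lay below the 403 and 345 CPM of dividing cells, but above the 124 and 120 CPM of those with an S share under 0.15. In non-dividing cells the members were not lower in DKO_Skp2het. They summed to 702 CPM in DKO_Skp2het and 643 CPM in DKO (1.09, 1.05 to 1.13), and to 778 and 659 CPM in cells without any core UMI (1.18, 1.12 to 1.24). The S phase list was also higher there, at 1.13 in non-dividing cells and 1.22 in cells without core UMIs, as was Slbp at 1.20 and 1.31, while the core list stood at 0.864 and 0.828. The part of these differences in the member ratio was not tested. Most of this was Hist3h2ba and Hist3h2a, at 437 and 394 CPM in non-dividing cells. The 59 other members stood at 265 and 249 CPM (1.06, 1.00 to 1.13), and at 1.10 in cells without core UMIs. Hist1h2bc stood at 41.9 CPM in DKO_Skp2het and 27.0 CPM in DKO (1.55, 1.31 to 1.85), and Hist1h1e at 39.3 and 32.0 CPM (1.23, 1.04 to 1.45). Past 1.5-fold, 3 of 29 members were lower, against 5.19% of all genes, and 5 of 29 were higher, against 5.04%. Of the 10 with at least 100 UMIs there, 1 was lower, against 2.33%, and 1 was higher, against 2.31%.

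Cell types were described from clusters made without the members and without the cell cycle lists. The clusters still differed in division. Among those with at least 50 cells of each library, amacrine-like cells were lowest, with 2.82% dividing cells in DKO_Skp2het and 2.38% in DKO. Neurogenic progenitor-like cells were highest, with 100% in both libraries. Smaller clusters included microglia-like cells, which held no dividing cell in either library. The clusters include progenitor-like, rod-like, bipolar-like, amacrine-like and microglia-like cells, named from marker genes, and 12 clusters held at least 50 cells of each library. Of these, cluster 12 had the highest level of the 59 other members, at 3931 CPM in DKO_Skp2het and 4414 CPM in DKO. It has no name, is led by Txnip, Myc and Gadd45b, and 98.4% of its DKO_Skp2het cells and 100% of its DKO cells were dividing. Neurogenic progenitor-like cells, led by genes such as Olig2, followed at 1748 and 2281 CPM. Unnamed cluster 2, led by Tagln2 and Rbp7, stood at 1681 and 1776 CPM. Amacrine-like cells were lowest at 92.9 and 96.8 CPM.

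Hist3h2ba and Hist3h2a followed another order. They were highest in bipolar-like cells, marked by genes such as Grm6, at 1410 CPM in DKO_Skp2het and 1119 CPM in DKO, where 4.48% and 8.62% of cells were dividing. Immature neuron-like cells followed at 924 and 573 CPM, with 3.30% and 10.3% dividing. In progenitor-like cells the pair stood at 122 and 106 CPM, and in unnamed cluster 6, led by Col4a1, at 51.1 and 69.2 CPM. Microglia-like cells held 12.8 and 37.8 CPM on 4 and 10 UMIs. The pair thus made up most of the member level in bipolar-like cells, 1410 of 1600 CPM in DKO_Skp2het and 1119 of 1404 CPM in DKO.

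**Figure D5:**
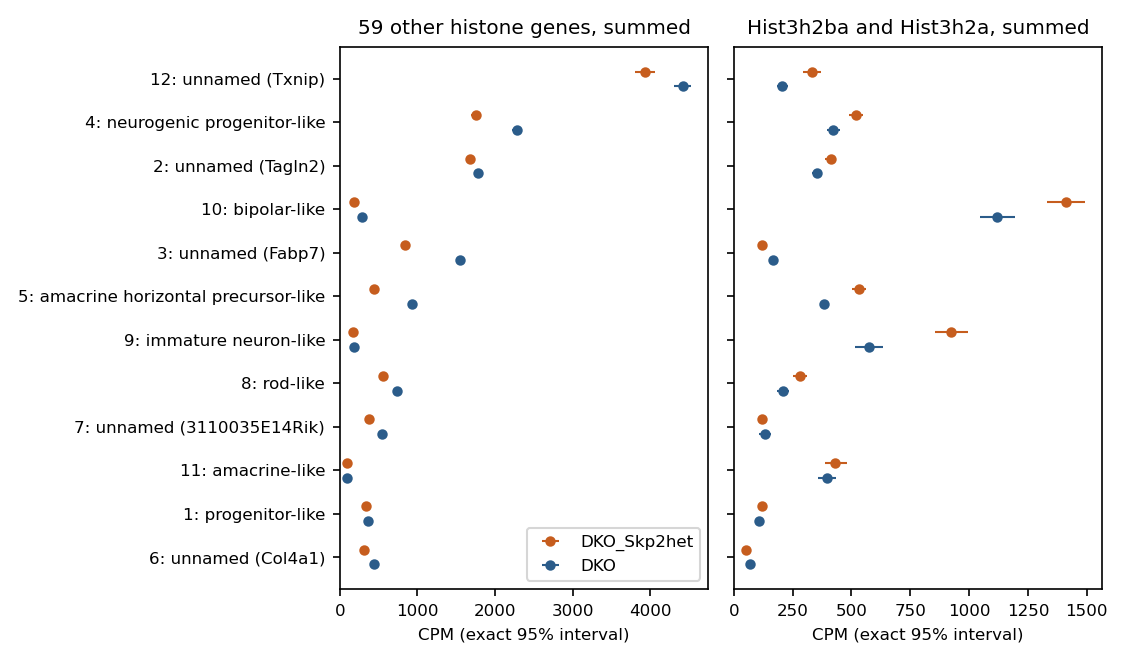
Summed CPM with exact 95% intervals of the 59 other members (left) and of Hist3h2ba with Hist3h2a (right) in the 12 clusters with at least 50 cells of each library; DKO_Skp2het is drawn above DKO. The 59 members are highest in cluster 12 (3931 and 4414 CPM) and the pair in bipolar-like cells (1410 and 1119 CPM).

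Within clusters, all members together were lower in DKO_Skp2het in 9 of 12 clusters, with 7 intervals below 1 and 2 above. Those above were immature neuron-like cells (1.45, 1.30 to 1.63) and bipolar-like cells (1.14, 1.05 to 1.24). The 59 other members, split off after the values were seen, were lower in 12 of 12 clusters, from 0.475 to 0.960. Their intervals excluded 1 in 9 clusters. In dividing cells alone, 8 clusters had at least 50 such cells in each library, and in all 8 the interval lay below 1, from 0.562 in unnamed cluster 3 to 0.947 in unnamed cluster 2. Hist1h2ap alone was lower in 11 of 12 clusters, with 10 intervals below 1, and ran from 0.126 in bipolar-like cells, on 4 UMIs in DKO_Skp2het and 30 in DKO, to 1.32 in amacrine-like cells, on 7 UMIs in each. The clusters with the lowest ratios of the 59 members also differed in depth between the libraries. In amacrine horizontal precursor-like cells they stood at 443 CPM in DKO_Skp2het and 932 CPM in DKO (0.475), where 29.2% and 53.5% of cells were dividing and median depths were 4092 and 6242 UMIs. In unnamed cluster 3, led by Fabp7, they stood at 844 and 1542 CPM (0.547), at median depths of 3667 and 6253 UMIs, where 87.5% and 92.5% of cells were dividing. In dividing cells alone the ratio was 0.620 in the amacrine horizontal precursor-like cells and 0.562 in cluster 3. The part of depth in these ratios was not tested.

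The pair Hist3h2ba and Hist3h2a was higher in DKO_Skp2het in 9 of 12 clusters, with 7 intervals above 1 and 2 below. Cluster 9, the immature neuron-like cells, gave 1.61 (1.42 to 1.84), cluster 12 also gave 1.61 (1.37 to 1.90), amacrine horizontal precursor-like cells gave 1.39 and bipolar-like cells 1.26. In cluster 3 the pair was lower, at 0.719 (0.626 to 0.825). Among the 8 members looked at singly by cluster, Hist1h2bc had 2 intervals above 1 and 4 below. It stood at 52.7 CPM in DKO_Skp2het and 20.2 CPM in DKO in progenitor-like cells (2.61, 1.71 to 4.16), against 24.0 and 58.7 CPM in amacrine horizontal precursor-like cells (0.409, 0.301 to 0.548).

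Promoters were compared because most members shared a course along the cell cycle. RefSeq sequences from 250 bases before to 50 after the start (GRCm38.p6) were found for 52 used members. CCAAT, on either strand, lay in 44 of them (84.6%), against 37.8% of other promoters: in all H1, H2A, H2B and H3 promoters and in 3 of 11 of H4. TATAAA, on either strand, lay in 31 (59.6%), against 14.1%. The octamer ATGCAAAT, on either strand, lay in 9 (17.3%), 5 of 15 H2A and 4 of 11 H2B promoters, against 1.71%. The promoters are not all separate sequences. Those of Hist1h2bl and Hist1h2ai overlap on opposite strands, as do those of Hist1h2ak and Hist1h2bn and those of Hist1h2an and Hist1h2bp. A match in a shared stretch is counted for each gene, and the shares without such overlaps were not computed. Matches of different motifs shared no base in any of the 52. Promoters of 2 members follow, with these matches in capitals. They are Hist1h2ap, which had the largest UMI difference, and Hist3h2ba, the more captured gene of the pair that was lower in dividing cells. The Hist1h2ap promoter (chr13:21833426-21833725, minus strand) holds 3 CCAAT matches, no TATAAA and no octamer. That of Hist3h2ba (chr11:58948661-58948960, plus strand) holds 4 CCAAT and 2 TATAAA matches and no octamer.
Hist1h2ap: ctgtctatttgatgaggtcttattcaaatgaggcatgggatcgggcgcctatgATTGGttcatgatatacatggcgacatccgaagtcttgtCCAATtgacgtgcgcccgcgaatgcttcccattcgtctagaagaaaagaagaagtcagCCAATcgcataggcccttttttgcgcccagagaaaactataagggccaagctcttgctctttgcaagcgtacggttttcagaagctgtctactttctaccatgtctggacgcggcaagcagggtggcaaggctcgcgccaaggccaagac
Hist3h2ba: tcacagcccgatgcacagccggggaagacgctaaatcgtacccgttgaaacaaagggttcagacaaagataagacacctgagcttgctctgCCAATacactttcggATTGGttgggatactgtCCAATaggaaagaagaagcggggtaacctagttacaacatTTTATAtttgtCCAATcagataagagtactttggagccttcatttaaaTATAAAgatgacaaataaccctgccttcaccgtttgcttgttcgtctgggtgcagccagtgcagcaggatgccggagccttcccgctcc

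Genes that act on histone transcripts and proteins were taken as lists. Of 20 genes listed for histone transcript processing, 0 were lower and 1 was higher by more than 1.5-fold over all kept cells. The shares of all genes were 3.41% lower and 5.06% higher, so these counts lay near them. The median log2 difference was 0.04, against 0.02 for all genes. The higher gene was Eri1, an exonuclease that trims and degrades histone transcripts at the stem-loop, at 75.2 CPM in DKO_Skp2het and 48.5 CPM in DKO (1.55, 1.44 to 1.67). In dividing cells it stood at 103 and 58.1 CPM (1.76, 1.62 to 1.92). Slbp stood at 403 and 345 CPM in dividing cells (1.17, 1.13 to 1.21). Lsm10, part of the U7 particle that cuts histone transcripts, gave 1.26 over all kept cells, and at the low end Coil, the Cajal body protein coilin, gave 0.832. Mbtd1, a gene of the list with no established part in histone transcript processing, gave 0.850 over the same cells.

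Of 24 histone chaperones 0 were past 1.5-fold in either direction, against 3.41% lower and 5.06% higher of all genes. Their median log2 difference was 0.04. Asf1b, a chaperone of H3 and H4, gave 1.18 over all kept cells and 1.34 (1.27 to 1.42) in dividing cells, and Npm1 gave 1.16. Anp32e, a chaperone of H2A.Z, gave 0.880 and Hira 0.926. Most replacement histone genes are expressed outside S phase as well and carry poly(A) tails. Of the 11 of 13 with enough UMIs 0 were past 1.5-fold, against the same shares of all genes, with a median of -0.06. H2afz stood at 6561 CPM in DKO_Skp2het and 6536 CPM in DKO (1.00), H3f3b at 6893 and 7590 CPM (0.908), H2afx gave 0.910, H1f0 0.940, H1fx 0.899, H3f3a 1.06 and H2afj 1.08.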

How the data were processed

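Single-cell 3′ libraries of peripheral retina, 1 per genotype, were analysed from raw UMI counts per gene and barcode, as deposited by the authors. Per the submitters' processing notes these were made with Cell Ranger 2.2.0 on build mm10; no source used here gives the barcode filter or how multi-copy reads were handled. Members and lists were chosen with earlier results of these data known.

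Barcodes under 500 genes or over 20% mitochondrial UMIs were removed (2 in DKO_Skp2het and 1 in DKO). Doublets were scored with Scrublet through scanpy with 2 simulated doublets per cell, and the top 0.8% per 1000 barcodes were removed (216 and 105; its automatic threshold marked 2 and 1 and was not used). Counts were summed over cells and given as CPM of those cells' UMIs. Ratios carry exact conditional 95% intervals, sums exact Poisson and shares Clopper-Pearson intervals; log2 differences used a pseudocount of 5 CPM. The ratio code was tested on simulated counts. Dividing cells had at least 3 core UMIs after thinning to 1500 UMIs. S share used lists of 46 S phase and 51 G2M genes less the core genes; 9 DKO_Skp2het and 2 DKO dividing cells with under 5 such UMIs were left out.

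Both libraries were clustered together without integration on 2000 variable genes without members and cell cycle lists, with 30 principal components, 15 neighbours and resolution 1. A cluster was named from at least 3 of a type's markers above 2-fold and more of them among its 10 leading genes than of any other type. A further condition was set after the data were seen: a single leading marker named a cluster only where no other type had at least 3 markers above 2-fold. Cluster names rest on these rules and may differ from the study's.

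Named members were those with at least 1% of member UMIs, the 5 highest and lowest by each ratio among members with at least 100 UMIs, and 2 per direction in each list. Of 69 member IDs 67 matched GENCODE M21 (GRCm38), whose transcripts were searched for letters; no genome was used, so bases past transcript ends were not searched. Alternatives covered filters, depth, scaling, member choice, thresholds and clustering. Tools were scanpy 1.11.5, leidenalg 0.10.2, igraph 0.11.9, matplotlib 3.10.9, pandas 2.3.3, scipy 1.17.1 and numpy 2.4.6 under Python 3.11.15.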

Additional observations from a re-analysis of the deposited data

Results flagged for a closer look

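The members summed together lay on opposite sides of 1 in the cell populations of the same contrast, with both 95% intervals clear of 1. Their CPM ratio of DKO_Skp2het over DKO was 0.763 in dividing cells and 1.09 in non-dividing cells. Among the 10 members with at least 100 UMIs in both populations, both intervals were likewise clear of 1 on opposite sides for Hist1h1e, with 0.810 in dividing and 1.23 in non-dividing cells, and for Hist1h2bc, with 0.787 in dividing and 1.55 in non-dividing cells. With 1 library per genotype, the difference between the populations was not tested.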

How the results depend on the processing

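Of 93 alternatives computed for the main results, 62 lay inside the main interval or, for counts, within 1.5 times, and the summed ratio stayed below 1 in all kept and in dividing cells under every alternative run. It was 0.816 in both populations in cells of at least 3420 UMIs, 0.747 and 0.749 with median-of-ratios scaling, 0.853 and 0.849 without Hist1h2ap, and 0.747 and 0.740 without the 1% of cells with most member UMIs. Among alternatives added after the values were seen, it was 0.673 and 0.719 without Hist3h2ba and Hist3h2a. In dividing cells it was 0.789 at 5 core UMIs, 0.859 with the 4 position ranges weighted equally, and 0.816 with the pair left out as well. Members higher by over 1.5-fold numbered 5 after thinning, 0 among those with at least 100 UMIs and 4 among all listed, against 1. The level at an S share of 0.15 to 0.30 over 0.50 and over, 4.74 in DKO_Skp2het and 3.50 in DKO, was 4.34 and 3.32 with doublets kept, 4.19 and 3.11 without Hist1h2ap, 4.35 in DKO_Skp2het at the common depth, and in DKO 3.78 with ranges of equal cell number and 3.78 without the pair. Dividing over non-dividing, 2.17 in DKO_Skp2het and 3.10 in DKO, became 2.52 and 3.26 at 5 core UMIs, 1.78 and 2.32 without Hist1h2ap, and 4.68 and 6.93 without the pair. The highest over the lowest cluster in summed member CPM, with the libraries pooled and over clusters with at least 50 cells of each library, was 10.4, against 8.77 at resolution 0.5 and 12.5 with cell cycle and member genes used in clustering. Apart from changes of members, the cause of these shifts was not tested. For 32 results on single members, 384 of 410 alternatives lay inside the main interval. Hist2h4 and Hist1h1d, whose intervals include 1, changed sides after thinning to 1500 UMIs, to 1.07 and 0.776 over all kept cells.

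No paired analysis was possible because each genotype has 1 library. Depth limits the scarce members: 16 of 61 had under 100 UMIs in all, so their ratios are imprecise.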

Other observations

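The genes most like the members in level over clusters, among those with at least 1000 UMIs, were named from 26 sums of a cluster and library with at least 50 cells, by Pearson's r of log2(CPM + 5), as a description without a test, since the sums share libraries and depth. For the 59 members without Hist3h2ba and Hist3h2a these were Ccna2, which encodes cyclin A2 (0.955), Ckap2 (0.943), Nek2 (0.940), Esco2 (0.940), Sgol1 (0.936), Mad2l1 (0.934), the Aurora B kinase gene Aurkb (0.932), Lin9 (0.927), Bub1 (0.927) and the condensin gene Smc4 (0.927). For all members together the list was led by the replacement H3.3 gene H3f3b (0.950), followed by Ccng2 (0.889), Brd8 (0.867), Asxl1 (0.862), Kif22 (0.847), Ing1 (0.844), Ckap5 (0.841), Bub1b (0.841), Xpo1 (0.839) and Nek2 (0.839). For Hist3h2ba with Hist3h2a it was led by Fibp (0.864), Actr10 (0.861) and Ip6k2 (0.842).

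Clusters with under 50 cells in a library held member levels too. Cone-like cells, 64 in DKO_Skp2het and 39 in DKO, stood at 926 and 862 CPM over all members. Astrocyte-like cells, 18 in each library, stood at 853 CPM in DKO_Skp2het and 574 CPM in DKO. Microglia-like cells had the lowest level of any cluster in each library, at 207 CPM in DKO_Skp2het and 242 CPM in DKO.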
